A study of Mus musculus with 14 samples.

Results

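The keratin-associated protein genes of the mouse, whose symbols begin with Krtap, were followed in skin through the first day after ultraviolet (UV) exposure. Every symbol in the deposited expression table that starts with Krtap was taken, which gave 52 genes of the 10980 listed. RNA came from the full thickness back skin of wild type C57BL/6 mice whose fur had been depilated. The irradiated groups were collected 0.5 h (2 libraries), 2 h (3 libraries), 6 h (3 libraries), 12 h (2 libraries) and 24 h (2 libraries) after a mixed UV source, and the unirradiated group at 0 h (2 libraries). All groups, the unirradiated one included, shared strain, genotype and depilation, and the labels give neither the age and sex of the mice nor the UV dose. Whether the libraries of 1 group came from separate animals is not stated, so p-values measure the spread between these samples alone, which may be technical.

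Keratin-associated proteins (KAPs) form the matrix that surrounds the keratin filaments of the hair shaft and ties them together, largely through disulfide bonds. They are made late, in the cortex and cuticle cells of the growing follicle, after the hair keratins have begun to accumulate. They are grouped by composition into high sulfur, ultrahigh sulfur and high glycine-tyrosine proteins, and their small genes lie side by side in clusters. Classes were given by family number, except that Krtap16-1 was put in the high sulfur and Krtap16-3 in the high glycine-tyrosine class. Of the listed genes, 18 were thus high sulfur, 17 ultrahigh sulfur and 15 high glycine-tyrosine, while Krtap31-1 and Krtap31-2 were left without a class. In build mm10, 22 of them lie on chromosome 11 within 443.9 kb, 22 on chromosome 16 within 960.5 kb, 5 on chromosome 7 within 130 kb and 3 on chromosome 10 within 116.7 kb.

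The start regions of 47 of the 52 genes are in the RefSeq promoter table (GRCm38.p6), as windows of 300 bases that run from 250 bases before to 50 bases after the annotated start. The letters TATAAA, the core of a TATA box, were searched on both strands and stood in 38 of the 47 windows (80.9%), against 13.6% of all 32851 windows. On the gene's own strand, with the first base 40 to 20 bases before the start, they stood in 28 of 47 windows (59.6%), against 2.0% of all windows. Cores of other factors with known parts in the hair follicle differed less in their shares. CTTTGA and CTTTGT, which LEF1 and its relatives can bind, stood on either strand in 29.8% and 27.7% of the Krtap windows, against 16% and 18.7% of all windows. TAATTA, a homeodomain core, stood in 21.3% of the Krtap windows and in 5.3% of all windows. A match of this kind is a description of the letters and not a measured site. Each window printed here is given 5′ to 3′ on the gene's strand with TATAAA in capitals. Krtap8-1 (chr16:89487903-89488202, minus strand) is shown because it had the highest mean level. Krtap26-1 (chr16:88647747-88648046, minus strand) and Krtap17-1 (chr11:99993945-99994244, minus strand) are shown because their time courses departed from most of the others.
Krtap8-1: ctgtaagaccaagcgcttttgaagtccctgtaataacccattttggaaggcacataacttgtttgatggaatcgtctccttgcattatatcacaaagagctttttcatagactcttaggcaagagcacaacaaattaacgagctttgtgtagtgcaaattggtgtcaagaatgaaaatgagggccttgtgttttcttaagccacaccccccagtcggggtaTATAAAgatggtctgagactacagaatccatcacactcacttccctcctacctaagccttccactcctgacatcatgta
Krtap26-1: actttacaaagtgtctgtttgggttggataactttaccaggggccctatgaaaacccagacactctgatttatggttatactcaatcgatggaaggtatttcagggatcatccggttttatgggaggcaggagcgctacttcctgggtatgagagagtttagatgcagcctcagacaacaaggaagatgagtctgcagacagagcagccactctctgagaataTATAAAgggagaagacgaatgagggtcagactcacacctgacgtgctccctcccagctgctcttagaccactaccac
Krtap17-1: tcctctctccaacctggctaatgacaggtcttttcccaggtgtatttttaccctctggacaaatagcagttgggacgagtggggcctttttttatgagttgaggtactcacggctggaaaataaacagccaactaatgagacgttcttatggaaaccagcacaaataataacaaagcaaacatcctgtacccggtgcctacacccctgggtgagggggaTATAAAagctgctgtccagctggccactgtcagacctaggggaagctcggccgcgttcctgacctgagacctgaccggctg

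The 3 neighbours on chromosome 11 that swung furthest in set 1 are shown with their windows, Krtap31-1 (chr11:99907670-99907969), Krtap31-2 (chr11:99936041-99936340) and Krtap9-5 (chr11:99948174-99948473), all on the plus strand.
Krtap31-1: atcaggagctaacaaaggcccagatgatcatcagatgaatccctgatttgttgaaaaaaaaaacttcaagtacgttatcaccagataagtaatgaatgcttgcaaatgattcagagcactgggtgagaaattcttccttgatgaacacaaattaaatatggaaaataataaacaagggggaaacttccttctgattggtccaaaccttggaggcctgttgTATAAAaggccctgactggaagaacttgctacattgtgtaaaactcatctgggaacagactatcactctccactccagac
Krtap31-2: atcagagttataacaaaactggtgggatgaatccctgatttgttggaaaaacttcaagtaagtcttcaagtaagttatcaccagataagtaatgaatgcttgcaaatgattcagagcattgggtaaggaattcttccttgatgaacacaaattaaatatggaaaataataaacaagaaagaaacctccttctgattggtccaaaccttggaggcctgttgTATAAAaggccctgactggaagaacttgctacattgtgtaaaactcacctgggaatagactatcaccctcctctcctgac
Krtap9-5: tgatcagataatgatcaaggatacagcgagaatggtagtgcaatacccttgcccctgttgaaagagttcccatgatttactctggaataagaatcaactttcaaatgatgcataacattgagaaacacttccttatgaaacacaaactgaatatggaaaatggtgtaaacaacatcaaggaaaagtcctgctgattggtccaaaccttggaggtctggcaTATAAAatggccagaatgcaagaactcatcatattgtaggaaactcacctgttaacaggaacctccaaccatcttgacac
In a global alignment the windows of Krtap31-1 and Krtap31-2 were 90% identical, those of Krtap31-2 and Krtap9-5 69.3% and those of Krtap31-1 and Krtap9-5 69%. The median over the 1081 pairs of Krtap windows was 53.7%. Such likeness was not particular to these neighbours. Krtap19-1 and Krtap19-2 were 93% identical, Krtap4-6 and Krtap4-9 81.3% and Krtap5-1 and Krtap5-4 70%. The longest run of letters held by all 3 windows was ctgattggtccaaaccttggagg, 23 bases that begin at position -60 from the start in each of them. It stood in 0 of the other Krtap windows and in 1 other window of the table.

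Values are in FPKM, the deposited unit, which scales sequenced fragments by transcript length and by library size. The 14 libraries fall into 3 sets by how the table writes their columns. Set 1 holds 6 libraries, 1 at each time, set 2 holds 5, at 0, 2, 6, 12 and 24 h, and set 3 holds 3, at 0.5, 2 and 6 h. Whole reads could be recovered from the FPKM steps of sets 2 and 3, at 12327907 to 13069488 reads a library in set 2 and 14739474 to 15550419 in set 3. The depth of set 1 is unknown. Each set has 1 library per time, so differences within a set have no replicate and no test. Genes of the inner root sheath, the epidermis and the dermis were all high, with Krt71 at 4166 to 10248 FPKM, Krt10 at 339 to 2589 FPKM and Col1a1 at 226 to 1254 FPKM. In bulk skin, fewer cells of a type and less RNA per cell cannot be told apart.

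Krtap genes supplied 8 of the 100 genes with the highest mean FPKM. All 52 reached 1 FPKM in at least 2 libraries, the level that every listed gene reached, and 49 reached it in every library. Means over the 14 libraries ran from 4.36 FPKM for Krtap20-2 to 4306 FPKM for Krtap8-1, with 8 genes above 1000, 38 above 100 and 11 below 50 FPKM. Krtap8-1 and Krtap7-1 ranked 4 and 5 of all genes by mean FPKM. The high glycine-tyrosine class had a median of the gene means of 755 FPKM, the high sulfur class 253 FPKM and the ultrahigh sulfur class 91.3 FPKM.

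**Figure D1:**
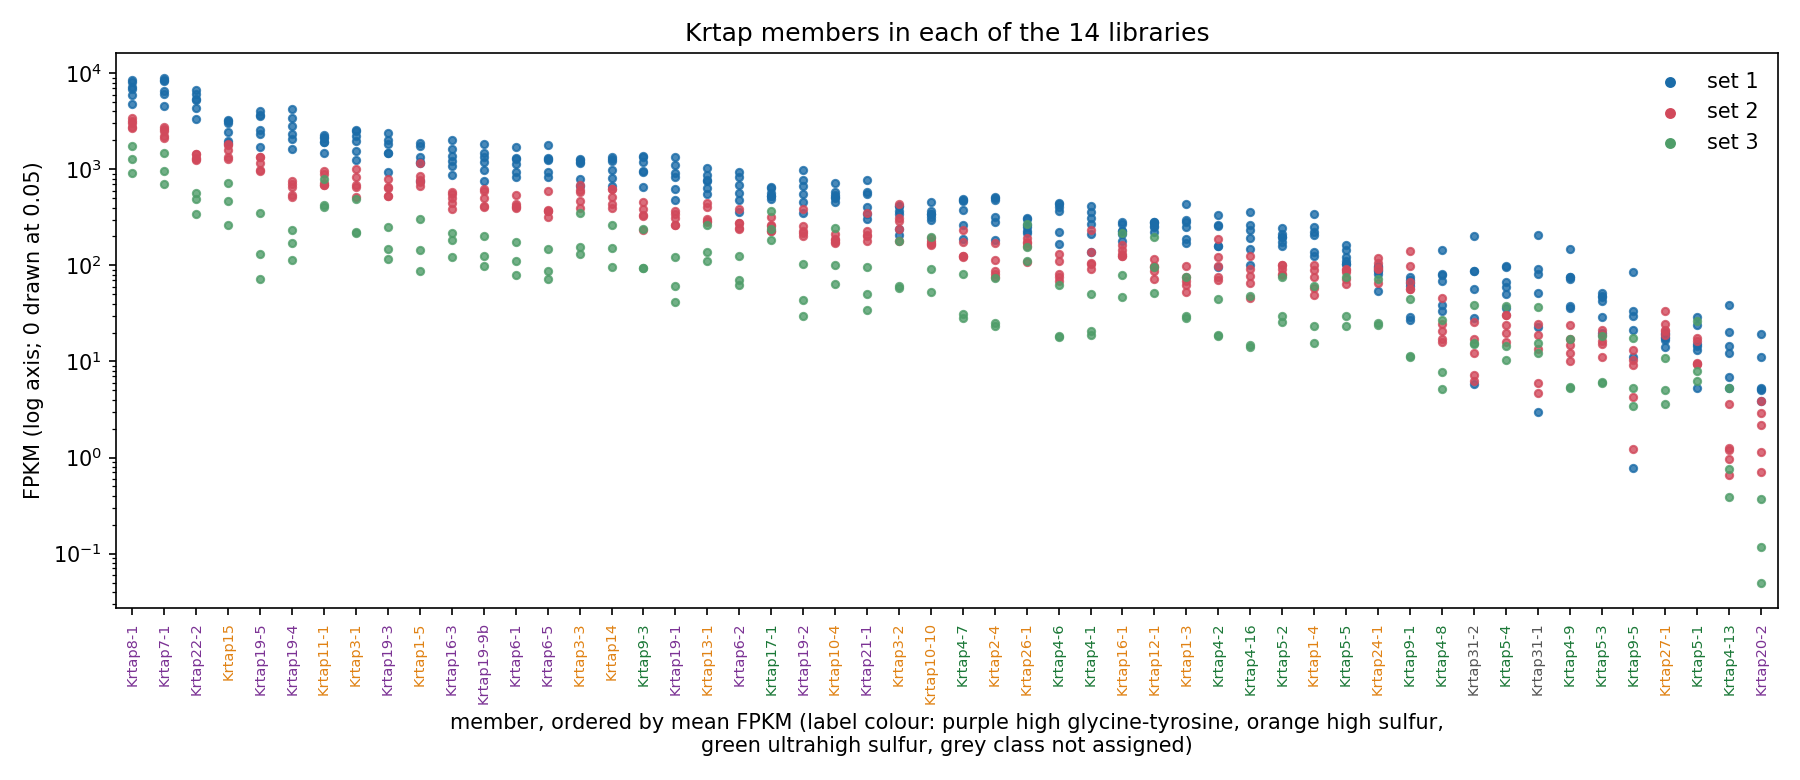
FPKM of each of the 52 Krtap genes (horizontal axis, ordered by mean) on a log axis, with 1 point per library coloured by library set and gene names coloured by protein class. For most genes the set 1 points lie above those of set 2 and the set 3 points lowest, so that the sets separate more than the time points within them; Krtap20-2, at the right, is listed at 0 in 1 library.

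The share of all listed FPKM that went to Krtap genes was lowest in set 3 and, at each time after UV, highest in set 1. Sets 1 and 2 were close to each other when unirradiated. In set 1 it was 5.46% unirradiated, then 6.93% after 0.5 h, 9.08% after 2 h, 6.67% after 6 h, 8.82% after 12 h and 10.1% after 24 h. In set 2 it was 5.36% unirradiated, then 3.97% after 2 h, 3.73% after 6 h, 4.58% after 12 h and 4.82% after 24 h. In set 3 it was 1.20% after 0.5 h, 0.961% after 2 h and 2.32% after 6 h. The irradiated libraries of set 1 therefore all lay above its unirradiated library, and those of set 2 all lay below theirs. By recovered reads, Krtap genes took 1.69% of reads in set 2 at 0 h (95% Wilson interval 1.68 to 1.70), 1.29% at 2 h (1.29 to 1.30) and 1.55% at 24 h (1.55 to 1.56). In set 3 they took 0.471% at 0.5 h (0.467 to 0.474), 0.401% at 2 h (0.398 to 0.405) and 0.916% at 6 h (0.911 to 0.920). These intervals cover counting error only, which was small beside the differences between libraries.

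High glycine-tyrosine KAPs, small proteins rich in glycine and tyrosine, supplied the most abundant transcripts. Krtap8-1 had 4808, 6768, 8062, 5981, 7253 and 8449 FPKM in set 1 at 0, 0.5, 2, 6, 12 and 24 h. It had 3160, 2666, 2729, 3428 and 3003 FPKM in set 2 at 0, 2, 6, 12 and 24 h, and 1290, 918 and 1766 FPKM in set 3 at 0.5, 2 and 6 h. The sets did not overlap for this gene, and within each set its highest library was less than 2 times its lowest. Krtap7-1, its neighbour on chromosome 16, had 4516, 6578, 8439, 6038, 8323 and 8868 FPKM in set 1 in the same order of times. It had 2744, 2229, 2121, 2620 and 2501 FPKM in set 2 and 952, 697 and 1461 FPKM in set 3. Both genes were thus highest at 24 h in set 1 and at 6 h in set 3, each the last time of its set. In set 2 Krtap7-1 was highest unirradiated. The least abundant gene of the class, Krtap20-2, had 5.07, 5.2, 11.2, 3.84, 5.26 and 19.3 FPKM in set 1. In set 2 it had 3.86, 2.90, 2.2, 1.14 and 0.699 FPKM, from 28, 20, 15, 8 and 5 reads. In set 3 it had 1, 0 and 3 reads at 0.5, 2 and 6 h, and a floor of 3 reads at 2 h corresponds to 0.354 FPKM. Its 24 h library was thus the highest of set 1 and the lowest of set 2.

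High sulfur KAPs, which include the families that link cortical keratin filaments, were next. Krtap15 had 1885, 2446, 3143, 1977, 3019 and 3255 FPKM in set 1, then 1578, 1354, 1271, 1800 and 1825 FPKM in set 2, and 467, 265 and 716 FPKM in set 3. Krtap11-1 had 1486, 1941, 2285, 1913, 2142 and 2167 FPKM in set 1, then 681, 720, 690, 970 and 884 FPKM in set 2, and 425, 403 and 801 FPKM in set 3. Krtap11-1 was above its unirradiated library at every later time of sets 1 and 2, whereas Krtap15 was below it at 2 and 6 h of set 2. Krtap27-1, the least abundant gene of the class, had 14.1 to 19.9 FPKM in set 1, 18.8 to 33.8 FPKM in set 2 and 3.62 to 10.9 FPKM in set 3. It was 1 of the genes in which set 2 did not lie below set 1.

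Ultrahigh sulfur KAPs, whose cysteine content is the highest, were less abundant and moved further between libraries. Krtap9-3 had 647, 949, 1186, 943, 1358 and 1372 FPKM in set 1, then 456, 327, 234, 385 and 332 FPKM in set 2, and 94.0, 93.9 and 241 FPKM in set 3. Krtap17-1 had 532, 571, 653, 633, 487 and 530 FPKM in set 1, then 229, 262, 256, 322 and 225 FPKM in set 2, and 183, 240 and 371 FPKM in set 3. In Krtap17-1 set 3 overlapped set 2, and its levels within set 1 stayed within 1.34 times of each other. Krtap4-13 was the least abundant of the class, with 5.23, 6.94, 20.3, 12.3, 38.4 and 14.5 FPKM in set 1, 0.662 to 3.65 FPKM in set 2 and 0.385 to 5.23 FPKM in set 3. Of its 50-base runs, 81.3% also occur in Gm11554, so reads of these genes could be split and its level is uncertain.

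Copies of this kind are common in the family. Of the 52 genes, 14 shared no 50-base run with another annotated transcript, 29 shared at most 10% and 2 shared more than 50%. The direction by set was alike whether or not sequence was shared: at 2 h the 29 genes that shared at most 10% had a median log2 change of 0.88 in set 1 and -0.44 in set 2. The 23 genes that shared more had medians of 0.92 in set 1 and -0.55 in set 2.

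The first question of the design is how expression after UV compares with unirradiated skin. Against the unirradiated library of the same set, Krtap genes were mostly higher in set 1 and mostly lower in set 2. The differences were taken as log2(FPKM + 1), a scale that makes the change of low genes look smaller than it is. In set 1 their median log2 change was 0.33 after 0.5 h, 0.89 after 2 h, 0.44 after 6 h, 0.86 after 12 h and 1.04 after 24 h. In set 2 it was -0.48 after 2 h, -0.60 after 6 h, -0.23 after 12 h and -0.16 after 24 h. The medians over all 10980 genes lay between -0.09 and 0.02 in every one of these comparisons. In set 1, 47, 52, 43, 45 and 47 of the 52 genes were above the unirradiated library at 0.5, 2, 6, 12 and 24 h, against 46.4%, 37.5%, 44.7%, 40.6% and 50.1% of all genes. In set 2, 7, 7, 20 and 16 of 52 were above it at 2, 6, 12 and 24 h, against 49.3%, 47.7%, 49% and 53.7% of all genes. At 2 h, 45 of the 52 were higher in set 1 and also lower in set 2, as were 10.6% of all genes. There were 37 such genes after 6 h (12.4% of all genes), 31 after 12 h (11.9%) and 33 after 24 h (17.1%). With 1 library per time in each set, the difference between the sets was not tested.

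**Figure D2:**
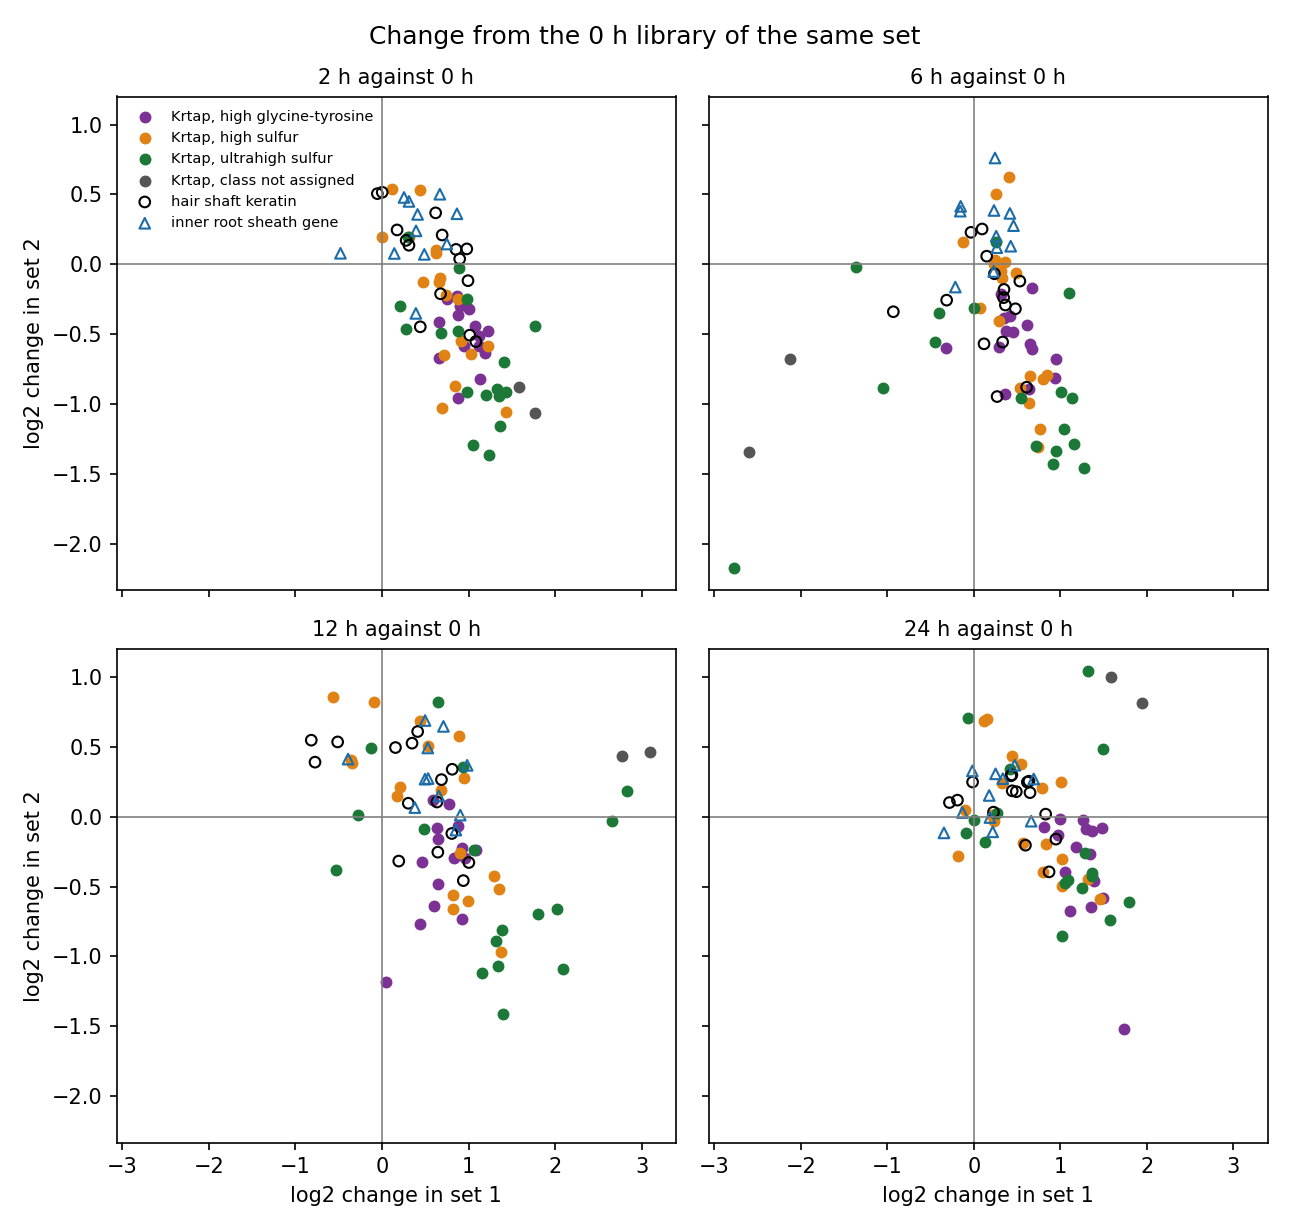
Log2 change from the unirradiated library in set 1 (horizontal axis) and in set 2 (vertical axis) at 2, 6, 12 and 24 h, with 1 filled point per Krtap gene coloured by class, open circles for hair shaft keratins and open triangles for inner root sheath genes. At 2 h, 45 of 52 Krtap points lie at the lower right, higher in set 1 and lower in set 2, while 10 of 11 inner root sheath genes were higher in set 2.

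In the fit across all 10980 genes with time and set as terms (limma on log2(FPKM + 1), two-sided, Benjamini-Hochberg adjustment), no Krtap gene passed against unirradiated skin at any time. At an adjusted p under 0.05 the counts were 0 of 52 at 0.5, 2, 6, 12 and 24 h, where 0.1%, 2.79%, 4.32%, 3.81% and 2.19% of all genes were called. At an unadjusted p under 0.05 they were 0, 0, 1, 1 and 0 of 52, against 10.1%, 21.6%, 22%, 18.1% and 12.1% of all genes. The F test over the 5 times called 0 of 52, against 4.92% of all genes, and 0 of 52 at an unadjusted p under 0.05, against 25.6%. The fit without the set term called 0 of all 10980 genes (0%) against unirradiated skin at every time, so its 0 of 52 is not a result about Krtap genes. Without set 1, which leaves 1 residual degree of freedom, 10 of 52 were called lower at 2 h, where 1.75% of all genes were called in either direction. Without the 6 h library of set 3, Krtap5-3 and Krtap9-5 were called lower at 6 h, where 8.74% of all genes were called. The comparisons at all times share the same 2 unirradiated libraries. Medians of the fitted changes were -0.35 after 0.5 h, -0.01 after 2 h, 0.25 after 6 h, 0.28 after 12 h and 0.41 after 24 h. They depended on which unirradiated library was used: without that of set 1 the median at 24 h was -0.16, and without that of set 2 it was 1.02.

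The spread behind these fits was wide. After time and set were accounted for, Krtap genes kept a median residual SD of 0.545 on the log2 scale, against 0.155 over all genes. For Krtap8-1 the fitted change at 24 h was 0.37 (95% interval -0.31 to 1.05, limma adjusted p = 0.732), which holds both 0 and a log2 change of 1. Krtap11-1, among the steadier of the abundant genes, was 0.46 higher at 24 h on the log2 scale (interval -0.14 to 1.06, limma adjusted p = 0.565). The lowest F test p belonged to Krtap13-1, a high sulfur gene of chromosome 16, at 0.139 (limma adjusted p = 0.319). It had 551, 632, 878, 774, 1020 and 748 FPKM in set 1, then 301, 281, 289, 449 and 407 FPKM in set 2, and 136, 112 and 260 FPKM in set 3. Its 12 h libraries were the highest of both sets, with a fitted change at 12 h of 0.73 ± 0.29 (SE) and an unadjusted limma p of 0.0305. The genes with an unadjusted p under 0.05 were Krtap13-1 at 12 h and Krtap26-1 at 6 h.

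**Figure D3:**
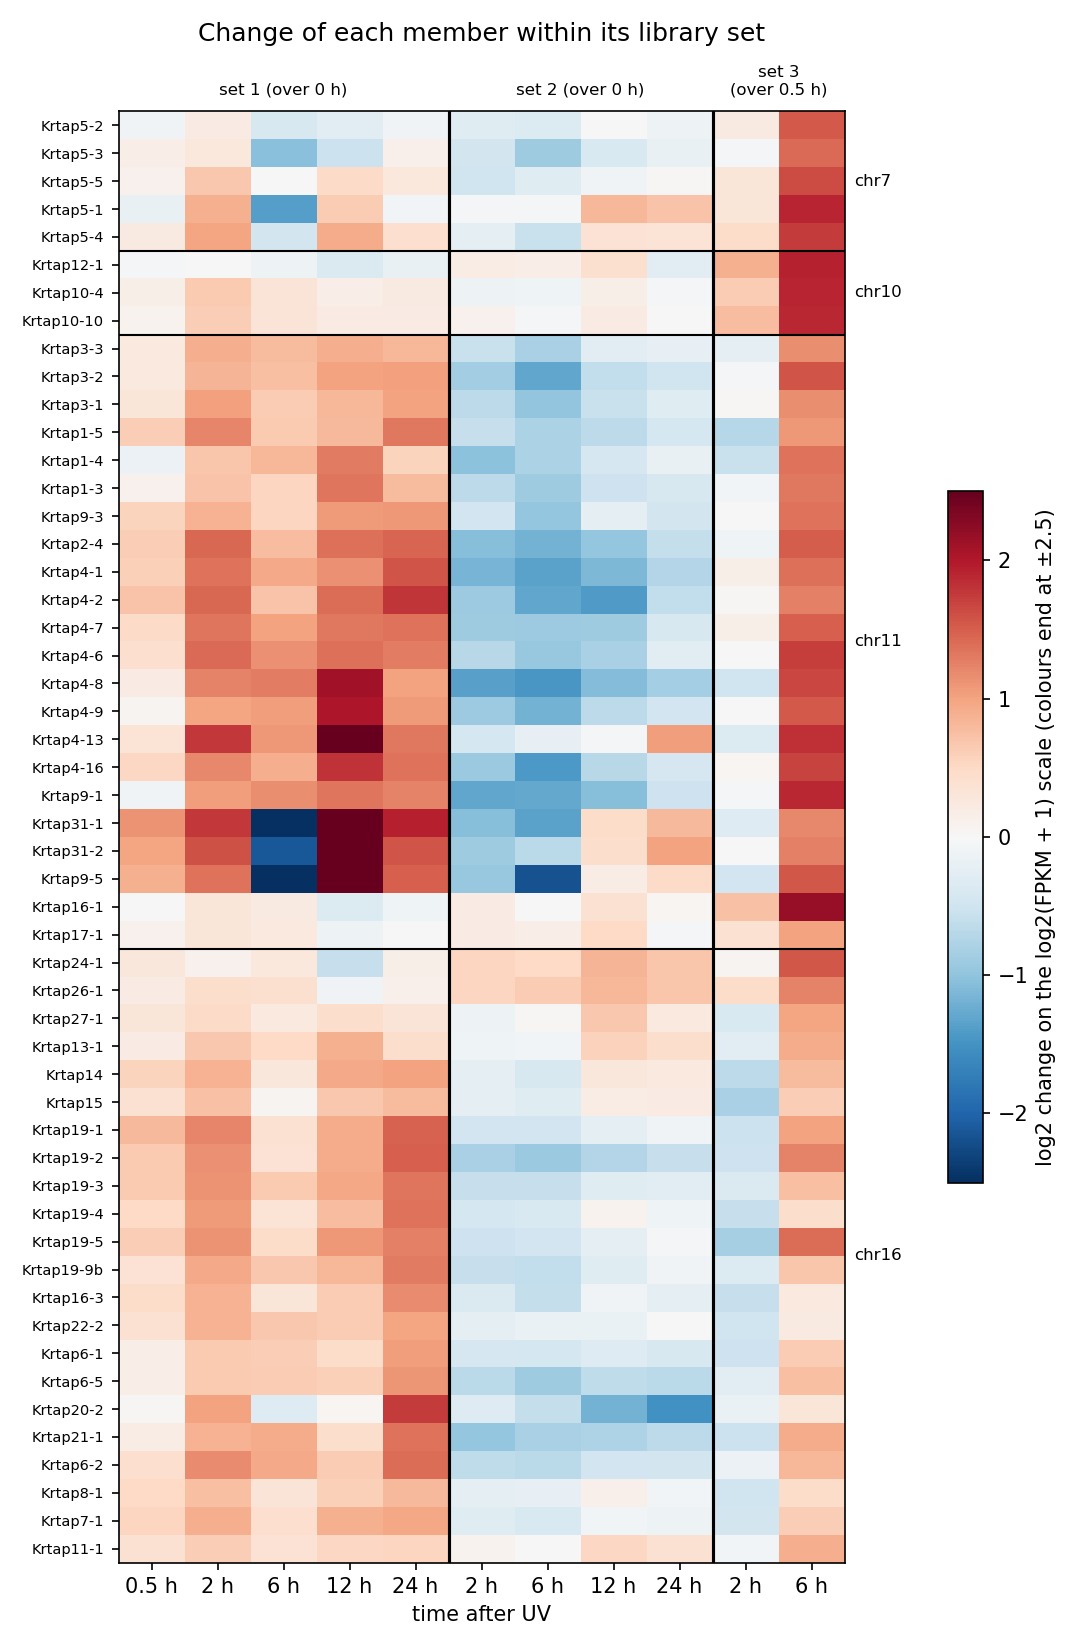
Log2 change of each Krtap gene (rows, in chromosomal order, with chromosomes marked at the right) within its set, over the unirradiated library in sets 1 and 2 and over the 0.5 h library in set 3; red is higher and blue lower. Set 1 is red in most rows and set 2 blue, all 52 rows are red at 6 h of set 3, and Krtap31-1, Krtap31-2 and Krtap9-5 switch between blue at 6 h and red at 12 h in set 1.

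The extremes of the fitted changes were small beside their errors. At 0.5 h they were Krtap8-1 at 0.19 ± 0.33 and Krtap9-1, an ultrahigh sulfur gene, at -1.0 ± 0.62 (log2 change ± SE). Krtap9-1 had 29.1, 27.3, 61.4, 66.2, 75.4 and 70.5 FPKM in set 1, then 140, 56.7, 56.9, 66.3 and 98.4 FPKM in set 2, and 11.3, 11 and 44.8 FPKM in set 3. The unirradiated library was the highest of set 2 and next to lowest in set 1 for this gene. At 2 h the extremes were Krtap26-1 at 0.42 ± 0.26 and Krtap1-4 at -0.48 ± 0.44. Krtap1-4, of the high sulfur class, had 138, 125, 225, 248, 342 and 205 FPKM in set 1, then 102, 49.4, 58.5, 75.8 and 89.2 FPKM in set 2, and 23.4, 15.6 and 61.5 FPKM in set 3. At 6 h they were Krtap4-13 at 0.83 ± 0.64 and Krtap9-5 at -1.51 ± 1.05. At 12 h they were Krtap31-1 at 1.78 ± 1.08 and Krtap20-2 at -0.57 ± 0.62. At 24 h they were Krtap31-1 at 1.38 ± 1.08 and Krtap12-1 at -0.23 ± 0.37. None of these passed the limma test, with adjusted p-values of 0.354 or more.

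In set 3, which has no unirradiated library, Krtap genes were lowest early and all highest at 6 h. Over its 0.5 h library their median log2 change was -0.13 at 2 h and 1.26 at 6 h, against -0.08 and 0.00 over all genes. All 52 had their highest set 3 value at 6 h, as did 42.9% of all genes. At 2 h, 17 of 52 were above the 0.5 h library, among them 4 of the 5 Krtap5 genes and all 3 genes of chromosome 10, and 0 of the 15 high glycine-tyrosine genes. In set 1 the 6 h library was the highest for 0 of 52 genes and in set 2 likewise for 0 of 52, so this peak was seen in set 3 alone among the 3 sets.

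The sets also stood far apart in level at matched times. At 2 h, 52 of 52 Krtap genes were lower in set 3 than in set 1, where 56.4% of all genes were, and 50 of 52 were lower in set 3 than in set 2, where 50.1% were. The median log2 difference was -3.58 against set 1 and -1.81 against set 2. At 6 h, 47 of 52 were lower in set 3 than in set 1 (62.7% of all genes) and 30 of 52 lower than in set 2 (47.4%). The median log2 differences at 6 h were -1.74 and -0.13. In unirradiated skin, 39 of 52 were higher in set 1 than in set 2 (59.4% of all genes), by a median of 0.41. Set, library and mouse cannot be told apart in these comparisons.

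Most Krtap genes moved together from library to library. With the mean of each set removed, the correlation of a gene with the mean of the other Krtap genes had a median of 0.851 over the 14 libraries, from 0.386 to 0.955, and 35 of 52 genes reached 0.8. These libraries share depth and makeup within a set, so the values are a description. Krtap20-2, Krtap26-1, Krtap24-1, Krtap12-1 and Krtap17-1 were the 5 genes below 0.5, picked out here after their values were seen. Krtap26-1, a high sulfur gene of chromosome 16, had 230, 264, 313, 306, 216 and 250 FPKM in set 1. It had 109, 158, 169, 194 and 176 FPKM in set 2, and 112, 154 and 267 FPKM in set 3. Its later libraries in set 2 all lay above the unirradiated one, unlike those of most Krtap genes, and at 2 h it was at about the same level in sets 2 and 3. Its fitted change at 6 h was 0.71 (interval 0.14 to 1.27, unadjusted p = 0.0192, limma adjusted p = 0.141). Krtap12-1, on chromosome 10, had 283, 278, 284, 259, 221 and 249 FPKM in set 1, then 86.9, 99.5, 97.3, 116 and 71.4 FPKM in set 2, and 51.6, 96.9 and 198 FPKM in set 3. Krtap24-1 had 81.2, 98.8, 87.8, 97.1, 54.4 and 90 FPKM in set 1, then 64.8, 94.5, 92.1, 118 and 106 FPKM in set 2, and 23.7, 25.0 and 71.5 FPKM in set 3. Krtap26-1, Krtap12-1, Krtap24-1 and Krtap17-1 all had their lowest set 1 value and their highest set 2 value at 12 h. So did Krtap16-1, whose correlation was 0.547, so this is not particular to the genes below 0.5.

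At 2 h, 7 genes were above the unirradiated library in both sets: Krtap10-10, Krtap11-1, Krtap12-1, Krtap16-1, Krtap17-1, Krtap24-1 and Krtap26-1. In human follicles the KAP10, KAP12, KAP17 and KAP24 families are among those known from the hair cuticle, the outer layer of the shaft. Krtap10-4, also of the KAP10 family, went the other way in set 2 at 2 h, with a log2 change of -0.13. So did the Krtap5 genes, with log2 changes of -0.02 to -0.49. The other Krtap families, Krtap5 included, were not sorted by layer here, and no pattern by layer was tested. Krt32 and Krt82, which are among the hair keratins known from the cuticle in human, had values of a similar order. Krt32 had 250, 295, 241, 267, 141 and 219 FPKM in set 1, then 164, 234, 196, 241 and 179 FPKM in set 2, and 133, 214 and 319 FPKM in set 3. Its correlation with the mean Krtap profile was 0.095, and that of Krt82 was 0.187. Krt39, Krt85 and Krt40, which were not sorted by layer here, were at 0.892, 0.636 and 0.549. At 12 h Krt32 too had its lowest value in set 1 and its highest in set 2.

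**Figure D4:**
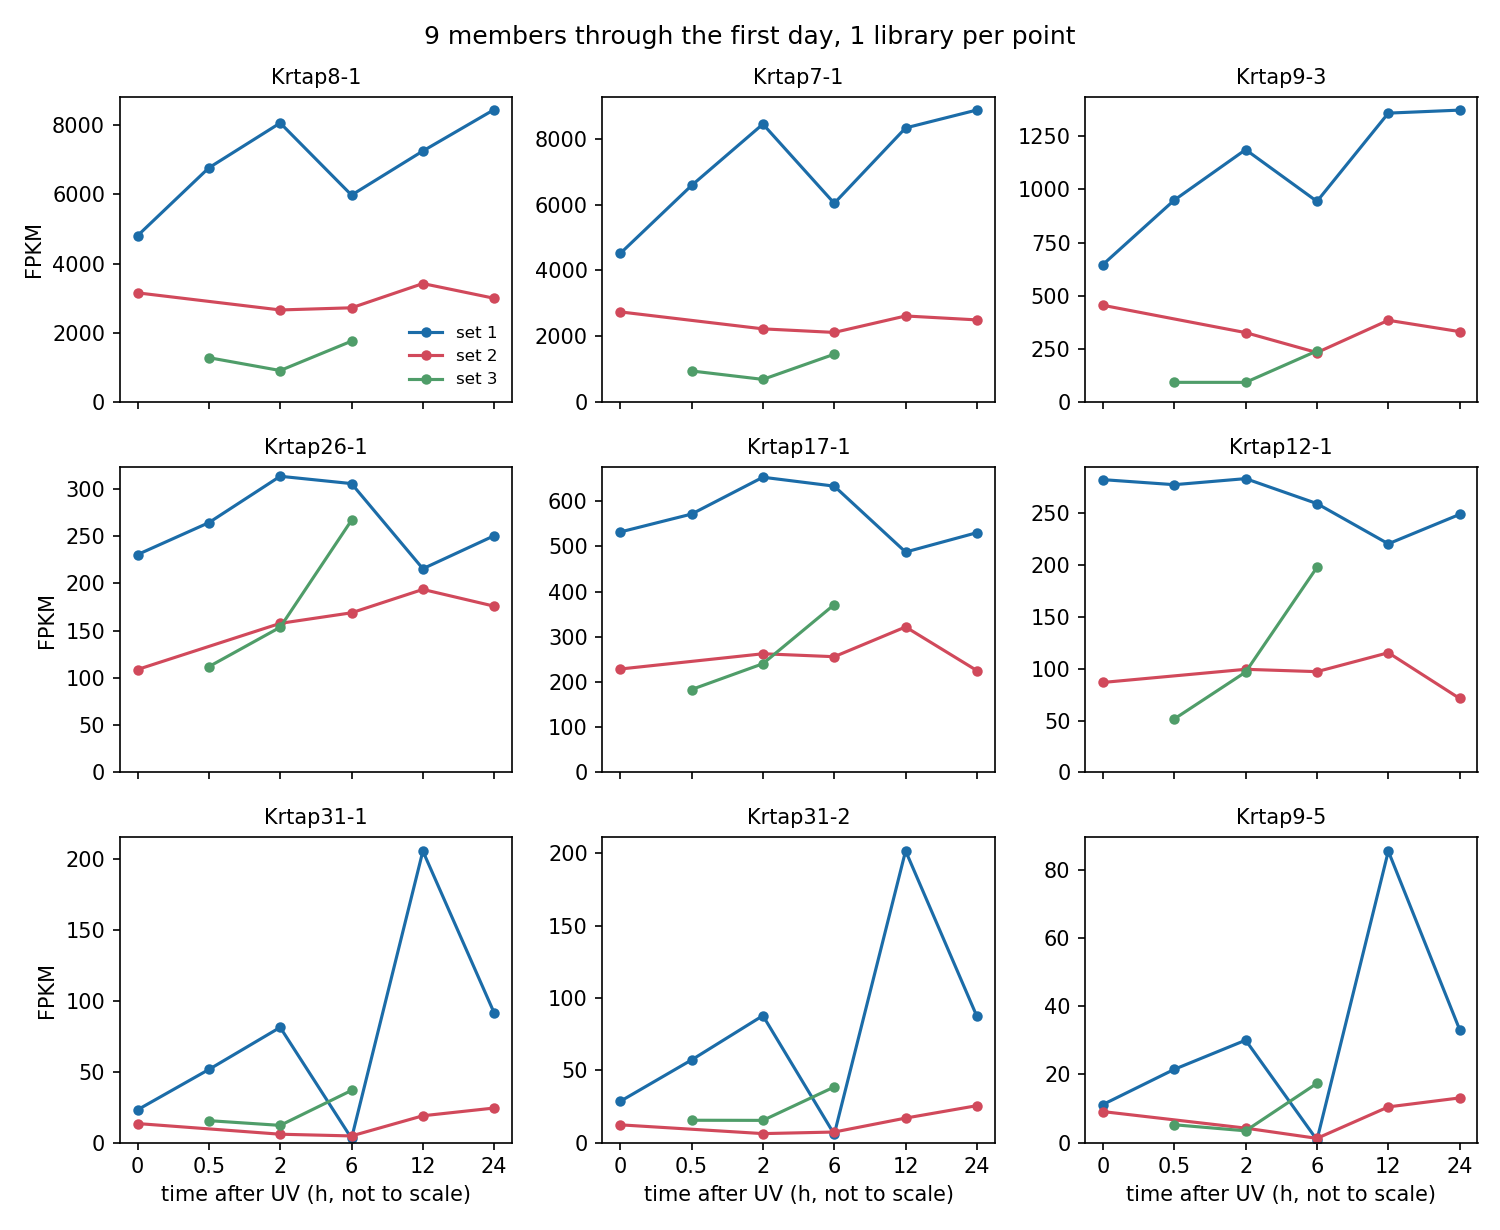
FPKM of 9 Krtap genes by time after UV (hours, axis not to scale), with 1 point per library and a line per set. The top row shows abundant genes, and the 3 sets stay apart for Krtap8-1 and Krtap7-1. For Krtap9-3, set 3 at 6 h (241 FPKM) lay above set 2 at 6 h (234 FPKM). The middle row shows genes whose set 2 values were above the unirradiated library at 2 h. The bottom row shows the chromosome 11 neighbours, with 206, 202 and 85.5 FPKM at 12 h of set 1.

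Krtap31-1, Krtap31-2 and Krtap9-5 lie within 41.6 kb of chromosome 11 (99907920 to 99949551, mm10), an interval with 5 annotated genes, and were picked out after their values were seen. Krtap31-1 had 23.1, 51.5, 81.2, 2.96, 206 and 91.3 FPKM in set 1, then 13.4, 5.90, 4.69, 18.9 and 24.4 FPKM in set 2, and 15.5, 12.1 and 36.8 FPKM in set 3. Krtap31-2 had 28.5, 57.2, 87.8, 5.75, 202 and 87.2 FPKM in set 1, then 12.3, 6.21, 7.30, 16.9 and 25.5 FPKM in set 2, and 15.5, 15.4 and 38.5 FPKM in set 3. Krtap9-5 had 11.2, 21.5, 30, 0.785, 85.5 and 33.1 FPKM in set 1, then 9.09, 4.24, 1.24, 10.5 and 13.1 FPKM in set 2, and 5.23, 3.45 and 17.4 FPKM in set 3. All 3 had their lowest set 1 value at 6 h and their highest at 12 h, 69.3 times apart for Krtap31-1, 35.1 times for Krtap31-2 and 109 times for Krtap9-5. In set 2 their values at 2 and 6 h were the lowest too, and their highest was at 24 h. In set 3 the 6 h library was the highest of all 3. Krtap31-1 and Krtap31-2 share 39.5% and 41.5% of their 50-base runs with other transcripts, mostly each other and Krtap9-5 shares 0%. None changed in the fit: the F test p-values were 0.143, 0.198 and 0.164 (limma adjusted p = 0.324, 0.381 and 0.347). Without the 6 h library of set 3, the fitted change of Krtap9-5 at 6 h was -2.47 (limma adjusted p = 0.0471) and that of Krtap5-3 was -0.97 (adjusted p = 0.0216). Krtap5-3, an ultrahigh sulfur gene of chromosome 7, had 42.3, 47.5, 51.3, 19.8, 28.9 and 46.4 FPKM in set 1, then 21.3, 15.2, 11.1, 16.1 and 18.8 FPKM in set 2. In set 3 it had 6.17, 5.95 and 18.3 FPKM, so its 6 h value was the lowest of sets 1 and 2 and the highest of set 3.

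The medians of the differences varied with position and class. At 2 h of set 1 the median log2 change was 1.22 for the 22 genes of chromosome 11, 0.88 for the 22 of chromosome 16, 0.68 for the 5 of chromosome 7 and 0.62 for the 3 of chromosome 10. At 2 h of set 2 these medians were -0.89, -0.34, -0.30 and 0.10 in the same order. By class, they were 1.05 in set 1 and -0.70 in set 2 for ultrahigh sulfur genes, 0.95 and -0.48 for high glycine-tyrosine genes and 0.68 and -0.18 for high sulfur genes. Chromosome and class overlap, since the high glycine-tyrosine genes all lie on chromosome 16, and neighbours share sequence, so these medians are given with no test.

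Hair shaft keratins, the filament proteins that KAPs embed, showed part of the same course. Their list holds 16 genes, of which 15 were measured. In set 1 their median log2 change over the unirradiated library was 0.68 at 2 h and 0.49 at 24 h, and in set 2 it was 0.11 at 2 h, -0.26 at 6 h and 0.17 at 24 h. At 6 h 10 of the 15 were higher in set 1 and lower in set 2, against 5 at 2 h, 5 at 12 h and 3 at 24 h. Over the 0.5 h library of set 3 it was 1.26 at 6 h, and all 15 were above it. At 2 h all 15 were lower in set 3 than in set 1, by a median of -2.61, and 14 were lower than in set 2. The fit called 0 of 15 in either direction at any time.

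By the correlation with the mean Krtap profile over 14 libraries, set means removed, 5 of the 10 most alike genes outside the family were keratins of the list with 0.9 or more: Krt86 (0.983), Krt34 (0.965), Krt81 (0.965), Krt33a (0.929) and Krt31 (0.900). Krt39 followed at 0.892. Krt86, a keratin of the hair cortex in human, had 410, 555, 829, 494, 823 and 791 FPKM in set 1. It had 374, 263, 193, 298 and 334 FPKM in set 2, and 84.3, 83.4 and 208 FPKM in set 3. The other 4 of the 10 were Dusp14 (0.946), a phosphatase gene, Gprc5d (0.902), a receptor gene known in hair-forming cells, S100a7a (0.878) and Arhgef4 (0.876). Of the keratins that appear earliest in the forming shaft, Krt35 was at 0.241 and Krt85 at 0.636. Krt36 (0.617), Krt40 (0.549), Krt82 (0.187) and Krt32 (0.095) also lay below Krt85. Krt35 had 653, 822 and 786 FPKM in set 3, against 708 to 915 FPKM in set 1 and 462 to 683 FPKM in set 2, so its sets overlapped. Krt85 had 95.4 to 146 FPKM in set 3, 619 to 952 FPKM in set 1 and 134 to 232 FPKM in set 2. Its set 1 thus lay apart from sets 2 and 3.

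Genes of the inner root sheath, the layers that mould the shaft and are not part of it, followed the Krtap course less closely. Their correlations with the mean Krtap profile had a median of 0.527, from -0.032 for Gata3 to 0.848 for Krt26, with Tchhl1 at 0.789. All 11 listed were measured, with medians of 0.39 at 2 h of set 1, 0.24 at 2 h of set 2 and 0.90 at 6 h of set 3. At 2 h their median log2 difference of set 3 against set 1 was -0.44. Krt71 had 4166, 7375 and 7769 FPKM in set 3, against 7259 to 10248 FPKM in set 1 and 4904 to 5909 FPKM in set 2. Krt28 was the gene of this list that rose, by 0.61 ± 0.13 at 2 h and 0.68 ± 0.13 at 12 h (log2 change ± SE, limma adjusted p = 0.0369 and 0.0219), and 0 of 11 fell. It had 826, 1027 and 886 FPKM in set 3, 767, 1146, 1220, 1054, 1256 and 1065 FPKM in set 1, and 717, 1016, 869, 1124 and 927 FPKM in set 2. Tchhl1, also of this list, was far lower in set 3, with 20.4, 29.4 and 120 FPKM there against 261 to 549 FPKM in set 1 and 295 to 384 FPKM in set 2. Krt26 and Tchh were lower there too. Krt26 had 35.8 to 96.9 FPKM in set 3, 169 to 317 FPKM in set 1 and 240 to 275 FPKM in set 2. Tchh had 801 to 1412 FPKM in set 3, 3438 to 5535 FPKM in set 1 and 2272 to 3166 FPKM in set 2.

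**Figure D5:**
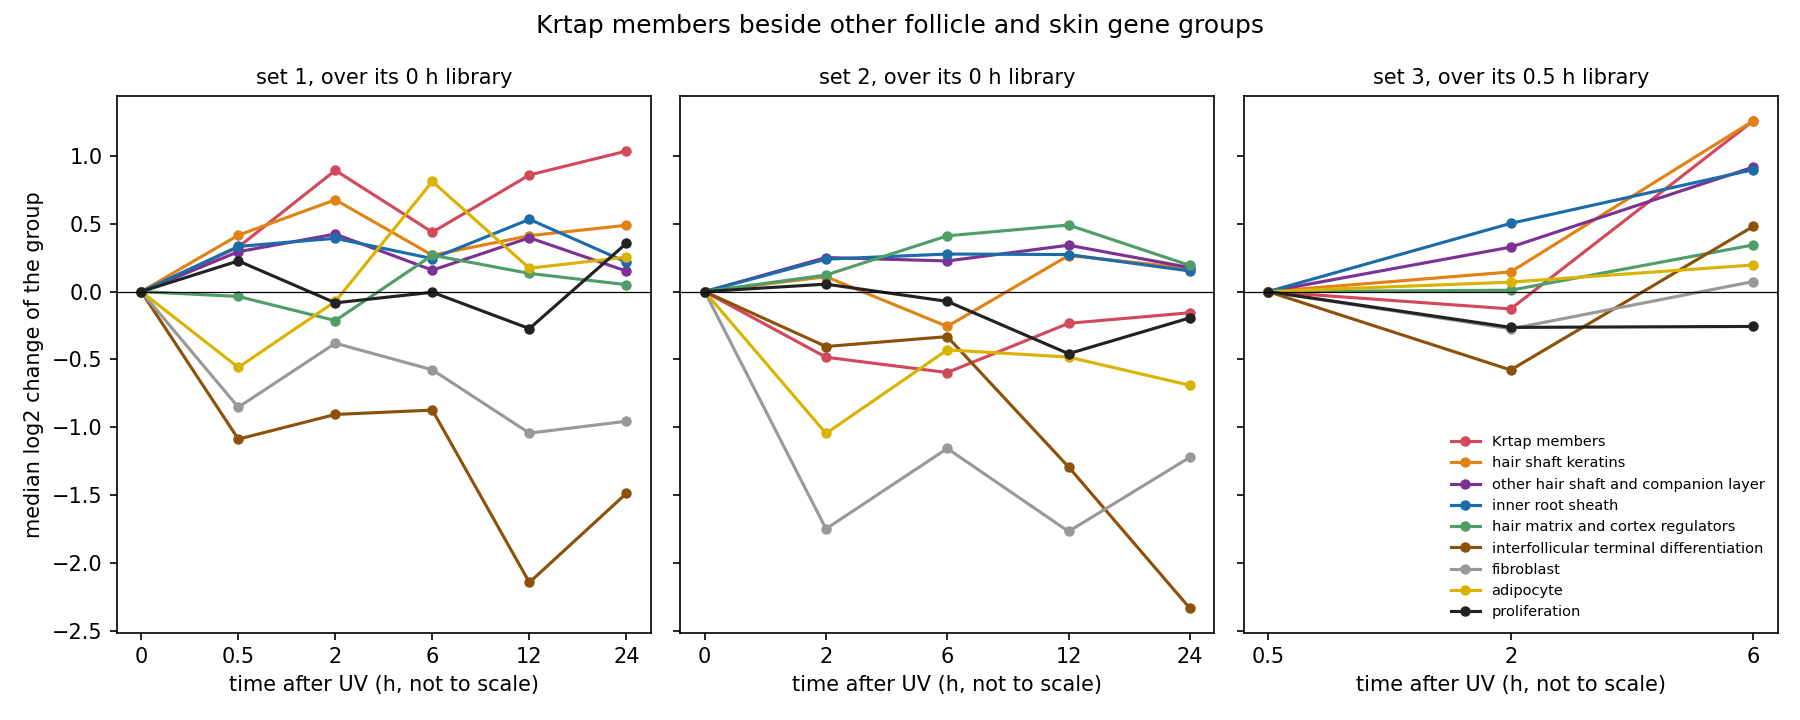
Median log2 change of Krtap genes and 8 of the 12 other gene lists by time, over the unirradiated library in sets 1 and 2 and over the 0.5 h library in set 3 (1 library per time and set, so no error is drawn). Among the lines drawn, the Krtap line is the highest of set 1 at 2, 12 and 24 h, reaching 1.04, and lies under the adipocyte line at 6 h (0.44 against 0.81); both lie below 0 in set 2, and the Krtap line ends at 1.26 in set 3, beside the hair shaft keratins. Skeletal muscle, melanocyte, leukocyte and endothelial genes are not drawn.

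Of the 11 other hair shaft and companion layer genes, 0 changed in the fit at any time. Of 20 regulators of the hair matrix and cortex, 1 rose at 6 h and 0 fell at any time; this was Bmp4, a signal of the follicle, at 0.59 ± 0.12 (log2 change ± SE, limma adjusted p = 0.0293). The F test over time called Bmp4 and Vdr, the vitamin D receptor gene (limma adjusted p = 0.0296 and 0.0481). Hoxc13 and Foxn1, regulators of hair keratin genes in the mouse, did not pass. Hoxc13 had 68.7 to 112 FPKM in set 3, against 87.9 to 128 FPKM in set 1 and 77.6 to 127 FPKM in set 2, so its 3 sets overlapped. Foxn1 had 31.8 to 53.5 FPKM in set 3, 55.2 to 72.7 FPKM in set 1 and 36.1 to 57.7 FPKM in set 2. Sets 1 and 3 therefore did not overlap for Foxn1. Of the 52 Krtap genes, 18 had 3 sets with no overlap between any of them, and sets 1 and 3 did not overlap in 42. The same counts were not made over all genes, so they are not shown to be particular to Krtap genes.

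Genes of other cell types differed as well, some in the same direction in sets 1 and 2. In terminal differentiation genes of the epidermis between follicles, 5 of 9 fell at 24 h and 0 rose, and the set medians at 24 h were -1.49 in set 1 and -2.34 in set 2. In fibroblast genes 5 of 8 fell at 24 h and 0 rose, with medians of -0.96 in set 1 and -1.22 in set 2. In leukocyte genes 3 of 5 fell at 24 h, with medians of -1.12 in set 1 and -1.02 in set 2.

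Adipocyte and proliferation genes, like the Krtap genes, differed in opposite directions between the sets at some times. Of 8 adipocyte genes, 6 were higher in set 1 and lower in set 2 at 6 h, with medians of 0.81 in set 1 and -0.43 in set 2, and 5 were at 24 h, with medians of 0.25 and -0.69. The summed FPKM of the list was 293 to 907 in the irradiated libraries of set 1, against 388 in its unirradiated library, and 299 to 464 in those of set 2, against 641. Cfd, the gene of a complement protease secreted by fat cells, had 568 FPKM at 6 h of set 1, against 197 FPKM unirradiated, and 214 FPKM at 6 h of set 2, against 320 FPKM unirradiated. All 8 proliferation genes were higher in set 1 and lower in set 2 at 24 h, with medians of 0.36 and -0.19, but 0 of 8 were at 2 h and at 12 h. Skeletal muscle genes had medians of 0.67 in set 1 and 0.59 in set 2 at 6 h, and 0 of 12 were opposite in this way. The fit called 0 adipocyte, 0 proliferation, 0 skeletal muscle, 0 melanocyte and 0 endothelial genes against unirradiated skin at any time, and its F test over time called the adipocyte genes Cidec and Lep (limma adjusted p = 0.0499 and 0.0317). The part of these cell types in the Krtap values was not tested.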

How the data were processed

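The authors deposited 1 table of FPKM values for 10980 genes in 14 libraries of mouse back skin. Per the submitters' processing notes, TopHat2 2.1.0 and Cufflinks 2.2.1 were used with the build mm10, in roles not given there, and the annotation and strandedness are not stated. Columns were assigned to times by their headers, which carry no replicate number. Set 1 was told by values of at most 6 digits, sets 2 and 3 (up to 17 digits) by how headers abbreviate the hour, and the unirradiated library of set 2 by its mean correlation with set 2 (0.964) and set 3 (0.888). Each set has the same times as 1 of the replicate numbers in the titles, and the set term uses this pairing. Whole reads were recovered for 10954 genes of sets 2 and 3 (100% of those above 0, relative tolerance 1e-11) and used for depth alone.

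Tests used limma 3.58.1 in R 4.3.3 on log2(FPKM + 1), with time and set as terms, trended variances, 6 residual degrees of freedom and Benjamini-Hochberg adjustment over all 10980 genes. The filter of 1 FPKM in 2 libraries removed 0 genes. The fit was tested on simulated data. Classes came from family numbers, with Krtap16-1 and Krtap16-3 placed apart, since no protein table was used here. Genes were named by level within a class (the 2 highest and the lowest), by extreme fitted change and by likeness to the mean profile; others are marked as picked after their values were seen. Genes and lists were chosen with earlier results of these data known. Shared 50-base runs were counted against GENCODE transcripts on both strands. Promoter windows and their alignments used RefSeq GRCm38.p6, with Python 3.11.15 and Biopython 1.88.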

Additional observations from a re-analysis of the deposited data

Results flagged for a closer look

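Most Krtap genes differed in opposite directions in the 2 sets that have an unirradiated library, at every time those sets share. The number of the 52 that were above their own unirradiated library in set 1 and below it in set 2 was 45 after 2 h (as were 10.6% of all genes), 37 after 6 h (12.4%), 31 after 12 h (11.9%) and 33 after 24 h (17.1%). Other lists shared this at single times, with 10 of 15 hair shaft keratins and 6 of 8 adipocyte genes after 6 h and 8 of 8 proliferation genes after 24 h. The counts at all times use the same unirradiated library of each set, so they are not independent. In set 1 that library was the lowest for 37 of 52 Krtap genes (14.6% of all genes). In set 2 it was the highest for 30 of 52 (24.5%). With 1 library per time and set, the difference between the sets was not tested.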

How the results depend on the processing

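The set term acts as the replicate block. With no replicate block the median fitted change of the 52 genes was -0.69 at 2 h and -0.43 at 6 h; 0 were called, as were 0 of all 10980 genes at every time. Leaving out 1 library at a time, medians ran from -0.80 to 0.33 at 0.5 h, -0.65 to 0.55 at 2 h, -0.44 to 0.77 at 6 h, -0.26 to 0.93 at 12 h and -0.16 to 1.02 at 24 h; the lowest came from leaving out the unirradiated library of set 1 and the highest from leaving out that of set 2. Calls ran from 0 to 2 at 6 h and 0 to 2 in the F test, the 2 being Krtap5-3 and Krtap9-5 without the 6 h library of set 3. That fit called 8.74% of all genes at 6 h and 7.9% in the F test, against 3.85% of Krtap genes in each. Without set 1, 1 residual degree of freedom was left: 2, 10, 2 and 1 genes were called at 0.5, 2, 12 and 24 h and 15 in the F test (0.2%, 1.75%, 2.26%, 2.6% and 5.18% of all genes), all fitted changes of the called genes being below 0 at these times. Medians were then -1.18, -0.88, -0.31 and -0.16 at 0.5, 2, 6 and 24 h, and Krtap20-2 turned to -1.52 at 24 h. Chosen after seeing the data, the fit without set 3 called 1 of the 52 genes at 6 h (Krtap5-3, 1.92%), where 5.77% of all genes were called. The fit without set 2, chosen likewise, gave medians of 0.33, 0.85, 0.86 and 1.04 at 0.5, 6, 12 and 24 h. The cause was not tested. A pseudocount of 0.1, filters on mean FPKM of 1 and 10, quantile and median-of-ratios scaling and a fit with no variance trend left every count of calls at 0. Medians within each set kept their direction under 3 alternatives chosen after seeing the data, a pseudocount of 0.1 and both scalings, with quantile scaling giving 0.21 at 0.5 h and 0.20 at 6 h of set 1 and -0.39 at 12 h of set 2, and median-of-ratios scaling -0.03 at 2 h of set 3. Depth limits Krtap20-2 and Krtap4-13, with 0 to 28 and 5 to 65 reads in the libraries of sets 2 and 3.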
